A study of Homo sapiens with 6 samples.

Results

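The libraries described here are the 3 controls of a 6-library RNA-seq series: UMUC3 tumours that carried no knockdown. They were chosen by the genotype given for each sample, control against GANAB knockdown, and not by any measured value. UMUC3 is an established line of human bladder carcinoma. In all 6 samples the cells had been placed orthotopically into bladders of C57 nude mice, which lack T cells, and were taken after 14 days. The 3 comparison libraries carried a knockdown of GANAB, the catalytic subunit of glucosidase II in the endoplasmic reticulum. The labels describe the control cells no further. Their construct, if any, was left without a description (not given in the sources used here). The labels also do not say whether libraries of a group came from separate mice. Hence p-values cover the spread among these libraries alone, and that spread may be technical.

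Urothelial tumours are placed on a scale from luminal, with uroplakins and the transcription factors GATA3, FOXA1 and PPARG, to basal, with KRT5, KRT14 and TP63, and some lose both and take on mesenchymal genes. In a growing tumour, cells far from vessels run short of oxygen, and the factor HIF-1 then switches on genes of glucose uptake, glycolysis and lactate export. Immediate early genes such as FOS, EGR1 and the NR4A family respond within minutes to growth signals and to stress. Heat shock proteins refold damaged proteins in the cytosol, and the unfolded protein response does the same for the endoplasmic reticulum.

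Control libraries 1, 2 and 3 held 36381218, 17942832 and 11737837 estimated counts. Levels between genes are compared below as deposited TPM, which are scaled for transcript length, and levels between libraries as CPM, estimated counts after TMM scaling to a common size. Control library 1 stood apart in its RNA classes: the mitochondrial ribosomal RNAs MT-RNR1 and MT-RNR2 took 29.2% of its counts, against 1.10% and 0.928% in control libraries 2 and 3 and 2.11 to 2.43% in the knockdown libraries. Because TPM of a library share a fixed sum, protein-coding genes held only 54.6% of it in control library 1 and 95.1% and 94.2% in the others, so a TPM value of library 1 reads low beside the same CPM. The mitochondrial ribosomal RNAs held 30.1% of TPM in library 1, so they were not the only class. Small and other ribosomal RNA took 0.379%, 0.0105% and 0.0276% of counts in control libraries 1, 2 and 3. Long noncoding classes took 2.86%, 1.36% and 1.52%. Control library 2 stood apart in its gene programmes, as described below. GANAB, the targeted gene, had 685 CPM in library 1, 825 CPM in library 2 and 661 CPM in library 3, and a knockdown mean of 233 CPM, so it was higher in every control (edgeR adjusted p = 0.00239).

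Ribosomal protein genes headed the control transcriptome. Of the 20 nuclear protein-coding genes with the highest mean TPM, 15 encode ribosomal proteins, and of the top 100 there were 70. The other members of the top 20 were TMSB10, EEF1A1, GAPDH, MT2A and FTH1. The 20 genes held 12.7%, 14.7% and 14.3% of all nuclear protein-coding TPM in control libraries 1, 2 and 3. TMSB10, which encodes the actin-binding peptide thymosin beta-10, stood at 7536, 27667 and 13480 TPM. EEF1A1, the elongation factor that brings tRNA to the ribosome, stood at 6117, 8146 and 13112 TPM. GAPDH, a glycolytic enzyme, had 3938, 10824 and 7433 TPM. MT2A, a metallothionein that binds zinc and copper, had 2845, 10388 and 4712 TPM, with library 2 the highest, as it was for TMSB10 and GAPDH.

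The lineage markers placed these tumours away from differentiated urothelium. Of 24 luminal genes, 12 had a mean of at least 1 TPM and 4 of at least 10, the latter being KRT18, KRT8, KRT7 and ERBB2. GATA3, which directs luminal identity, stood at 0.435, 0.383 and 0.213 TPM. FOXA1, its pioneer-factor partner, stood at 1.11, 1.51 and 1.49 TPM. KRT20, the keratin of umbrella cells, was listed at 0 in all 3 controls. The uroplakin genes UPK1B and UPK2 reached at most 1.62 and 1.21 TPM, and UPK2 was listed at 0 in library 3. PPARG, a nuclear receptor of luminal tumours, was the exception among these factors at 2.64, 8.22 and 5.56 TPM. The simple-epithelial keratins were well expressed: KRT18 had 87.6, 254 and 166 TPM and KRT8 had 61.2, 164 and 143 TPM.

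Of 25 basal and squamous genes, 10 had a mean of at least 1 TPM and 4 of at least 10, the latter being CD44, KRT15, ITGA6 and S100A2. KRT5, the main basal keratin, stood at 4.94, 1.52 and 7.95 TPM, and KRT14, its partner, at 2.30, 0.977 and 1.54 TPM. TP63, the basal transcription factor, reached 1.78 TPM in library 3 and stayed at 0.592 and 0.527 TPM in libraries 1 and 2. The keratin KRT15 stood higher, at 11.8, 14.0 and 46.3 TPM, and S100A2, a calcium-binding protein, at 5.90, 37.7 and 10.1 TPM. CD44, the hyaluronan receptor, had 180, 218 and 369 TPM, and ITGA6, a hemidesmosome integrin, had 18.0, 15.6 and 24.9 TPM. Epithelial junctions were sparse: only 6 of 25 genes had a mean of at least 1 TPM. CDH1, E-cadherin, had 0.461 TPM in library 1 and was listed at 0 in the others, and EPCAM had 0.301 TPM in library 2 and was listed at 0 in the others. TJP1, a tight-junction scaffold, had 13.4, 16.2 and 19.6 TPM, so part of the junction machinery was present without E-cadherin.

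Mesenchymal genes were abundant instead, with 22 of 25 at a mean of at least 1 TPM and 15 at 10 or more. VIM, the intermediate filament vimentin, stood at 1147, 1618 and 2550 TPM. MMP14, a membrane-bound collagenase, had 190, 148 and 276 TPM. SPARC, a secreted matrix protein, had 199, 228 and 195 TPM. ZEB1, the repressor of E-cadherin, had 28.5, 17.3 and 50.5 TPM. CDH2, N-cadherin, was uneven among the controls at 10.5, 0.904 and 27.4 TPM, the only one of these with a control library below 1 TPM. Several neural genes were present too: UCHL1, a neuronal ubiquitin hydrolase, had 79.0, 357 and 123 TPM and TUBB3, a neuronal tubulin, had 61.1, 78.7 and 110 TPM, whereas the synaptic vesicle gene SYP had 4.02, 3.99 and 5.70 TPM. Set against the label of bladder carcinoma, the epithelial keratins 8 and 18 were present, while the urothelial factor GATA3 stayed under 1 TPM in every control.

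**Figure D1:**
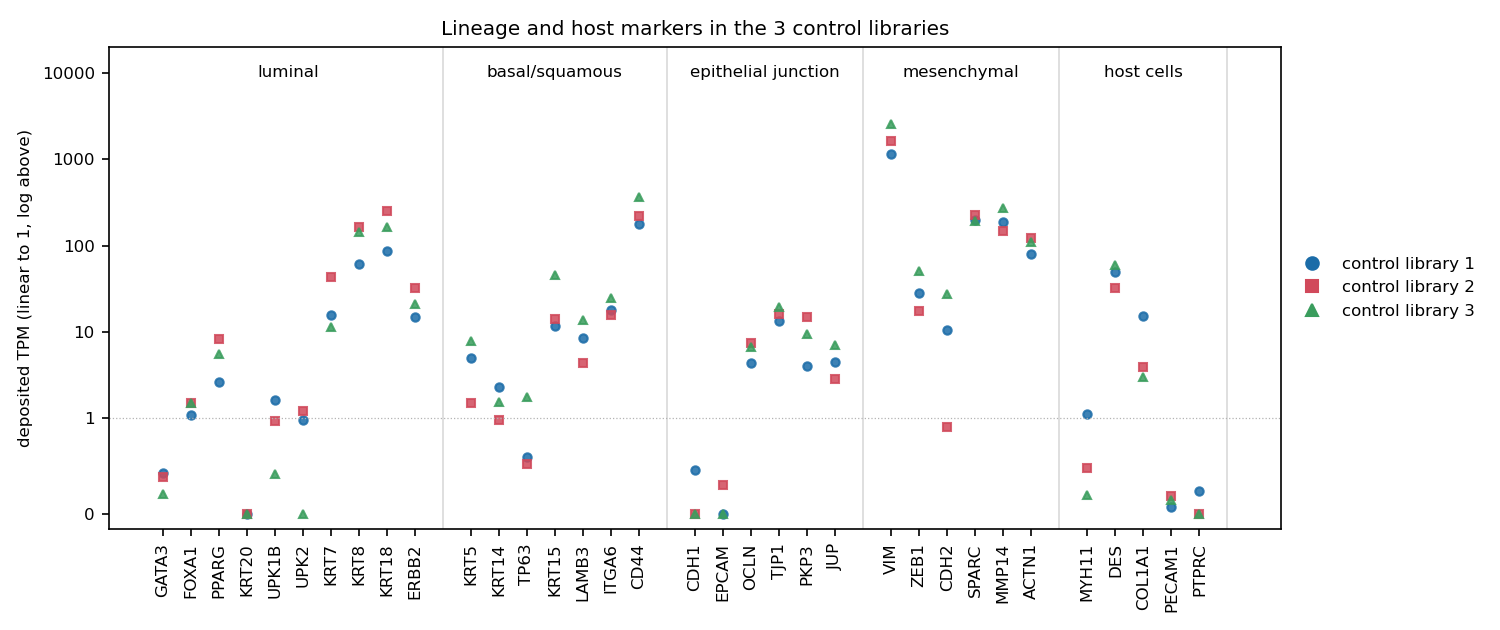
Deposited TPM (vertical axis, linear up to 1 and logarithmic above) of lineage and host marker genes in control libraries 1, 2 and 3, 1 point per library. GATA3, CDH1 and EPCAM lie below 1 TPM in every control, whereas VIM lies between 1147 and 2550 TPM.

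Of 32 genes recurrently altered in bladder cancer, 28 had a mean of at least 1 TPM. MYC stood at 222, 164 and 493 TPM and CCND1, which encodes cyclin D1, at 133, 91.5 and 201 TPM. FGFR3, the receptor often mutated in luminal tumours, had 0.784, 1.72 and 1.91 TPM. The tumour suppressor CDKN2A had 0.135 TPM in library 1 and was listed at 0 in the others, and its neighbour CDKN2B was listed at 0 in all 3. MTAP, which lies beside them, had 0.156, 0.206 and 0.375 TPM. The files hold expression only and give no copy number.

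The host bladder could add RNA of its own, and the sources used here do not say how mouse reads were handled. Of the endothelial list, 2 genes were well expressed, EGFL7 at 44.9, 107 and 35.8 CPM and TIE1 at 37.3, 112 and 20.2 CPM. Its other genes were low: PECAM1 had 0.588, 0.998 and 0.740 CPM, CDH5 and VWF had 0.404 and 0.441 CPM in library 1 and 0 in the other controls. PTPRC, the pan-leukocyte marker, had 0.246 TPM in library 1 and was listed at 0 in the others. The summed level of 12 lymphocyte genes was 4.19, 1.68 and 1.15 CPM and that of 9 red blood cell genes was 0.625, 0.263 and 1.48 CPM. The 12 macrophage genes summed to 103, 258 and 72.0 CPM, of which CD68, a lysosomal protein that is not limited to macrophages, gave 95.9, 255 and 66.8 CPM. The 12 endothelial genes summed to 87.4, 222 and 61.1 CPM, the 10 neutrophil genes to 24.2, 35 and 24.8 CPM and the 8 adipocyte genes to 6.66, 7.25 and 7.57 CPM. The 12 smooth muscle genes summed to 534, 242 and 473 CPM (796 to 834 CPM in the knockdown libraries). Of these, DES stood at 46.7, 19.2 and 37.5 CPM and MYH11, the smooth muscle myosin, at 6.95, 2.31 and 0.905 CPM. Most of each sum thus came from other members of the list, and whether their RNA came from smooth muscle was not tested. The 12 fibroblast genes summed to 307, 248 and 150 CPM, to which COL1A1 gave 118, 9.14 and 15.5 CPM and THY1 41.1, 123 and 21.8 CPM. Of the same list DCN stood at 0.147 CPM in library 1 and 0 in the others, and LUM was listed at 0 in all 3. Each sum runs over the listed genes that the count table holds. In bulk RNA, fewer cells of a type cannot be told apart from less RNA per cell.

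Receptor tyrosine kinases were led by EPHA2, AXL, MET and FGFR1, and 27 of 50 genes of the family had a mean of at least 1 TPM. EPHA2, an ephrin receptor, had 44.2, 81.5 and 67.6 TPM. AXL, the receptor for GAS6, had 44.1, 85.3 and 57.8 TPM. MET, the receptor for hepatocyte growth factor, had 48.2, 31.7 and 75 TPM, and FGFR1 had 50.1, 38.6 and 60.0 TPM. The order of these 4 differed between libraries, so none can be placed first. EGFR followed at 10.9, 5.86 and 16.6 TPM, and ERBB2 had 15, 32.5 and 21.1 TPM. In CPM, MET and EGFR were lowest in library 2 (MET 331, 151 and 340; EGFR 104, 36.9 and 87.5) and ERBB2 was highest there (60.5, 99.8 and 50.3).

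Among adhesion receptors ITGB1, the common beta-1 integrin chain, led at 472, 566 and 649 TPM, ahead of its partner ITGA3 at 157, 239 and 222 TPM in every control. The chains ITGB5 and ITGA5 had 89.4, 127 and 121 TPM and 48.1, 133 and 57.0 TPM. ITGB1, ITGA3 and ITGB5 were steady in CPM, with ranges of 1.21-, 1.12- and 1.06-fold, whereas ITGA5 ranged over 3.26-fold and the collagen receptor ITGA2 over 4.62-fold. Of the cytokine receptors IL13RA2, the decoy receptor for interleukin 13, led at 135, 227 and 207 TPM. The oncostatin M receptor OSMR had 33.9, 38.5 and 50.5 TPM and the interferon gamma receptor chain IFNGR2 had 29.5, 46.8 and 51.7 TPM. In CPM, IL13RA2 (190, 212 and 189) and OSMR (175, 156 and 179) varied by 1.12- and 1.15-fold.

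TNF family receptors were common, with 10 of 20 genes at a mean of at least 10 TPM. TNFRSF1A, the main TNF receptor, had 56.9, 177 and 91.4 TPM, and LTBR, the lymphotoxin receptor, had 64.9, 156 and 94.6 TPM. TNFRSF12A, the TWEAK receptor, and CD40 had 60.4, 140 and 110 TPM and 36.7, 124 and 69.6 TPM. Each of the 4 was highest in library 2, also in CPM, with ranges of 1.52- to 2.20-fold. TGF-beta family signalling had its type II receptor TGFBR2 at 20.1, 41.5 and 27.4 TPM and the BMP receptor BMPR1A at 13.3, 12.6 and 26 TPM. LRP5, a WNT co-receptor, had 30.3, 97.8 and 54.5 TPM and NOTCH2 had 18.9, 12.2 and 21.7 TPM.

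Among nuclear receptors the 2 most abundant by mean TPM, NR4A2 and NR4A1, were also among the most uneven. NR4A2, an orphan receptor that is an immediate early gene, stood at 440, 9.67 and 524 CPM, a range of 54.1-fold with library 2 far below the others. NR4A1 stood at 206, 17.3 and 298 CPM and NR4A3 at 68.0, 3.99 and 141 CPM, with library 2 lowest in both. Liver X receptor beta, NR1H2, was highest in library 2 at 71.3, 133 and 71.6 CPM. Of the other receptors BDKRB1, the inducible bradykinin receptor, stood at 25.9, 3.00 and 47.9 CPM, a range of 16.0-fold. TIE1, a kinase of endothelium, stood at 37.3, 112 and 20.2 CPM. ROR2, a WNT5A receptor, had 9.27, 18.6 and 2.39 CPM and the growth hormone receptor GHR had 7.98, 13.1 and 1.65 CPM.

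**Figure D2:**
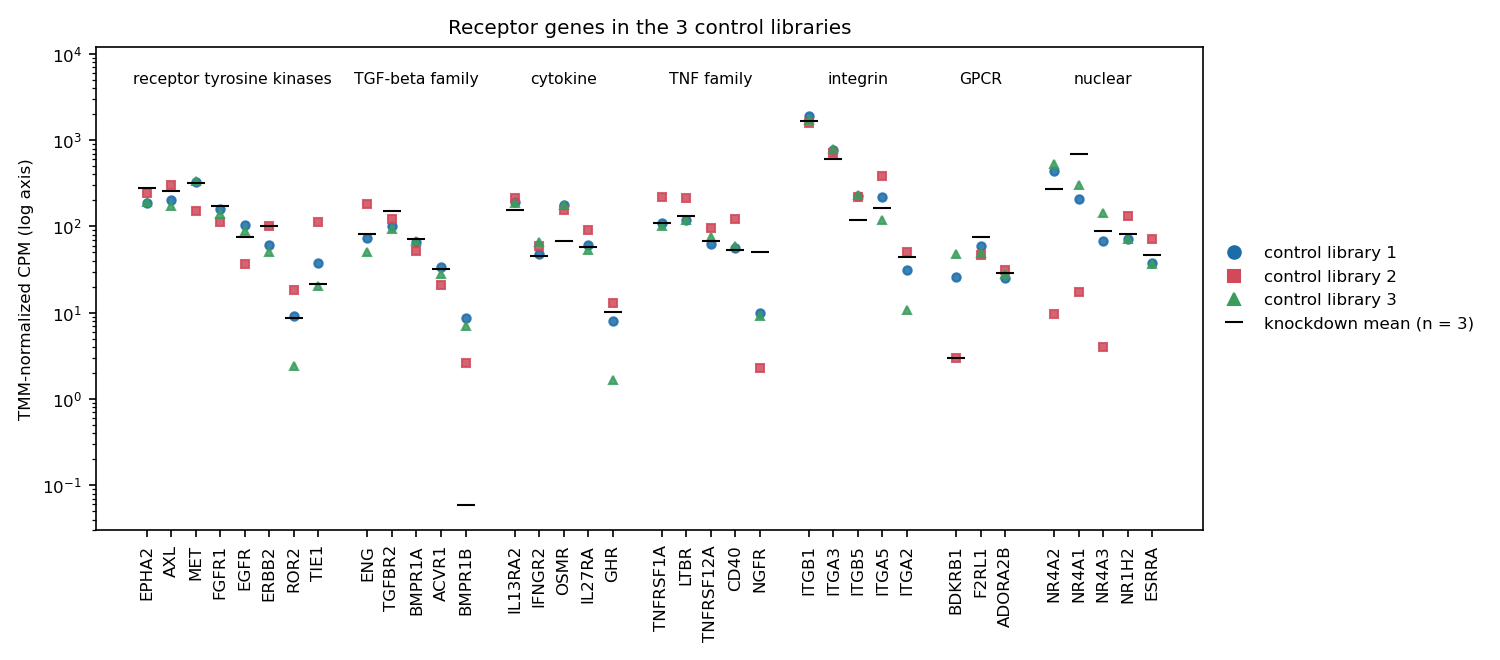
TMM-normalized CPM (logarithmic vertical axis) of receptor genes by class in control libraries 1, 2 and 3, with the mean of the 3 knockdown libraries as a bar. The points of ITGB1, ITGA3, IL13RA2 and OSMR nearly coincide, whereas NR4A2, NR4A1, NR4A3 and BDKRB1 have control library 2 far below the others.

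The receptors were compared between the groups with edgeR, where 722 of 19430 genes (3.72%) were higher in control and 892 (4.59%) lower at an adjusted p under 0.05. Without control library 2 the edgeR test called 2796 and 2808, and without any 1 of the knockdown libraries 9 to 33 and 53 to 82. OSMR was higher in control than in knockdown, with every control between 156 and 179 CPM and a knockdown mean of 68.1 CPM (log2 difference 1.32, SE 0.124, edgeR adjusted p = 0.00318). The integrin chain ITGB5 was higher as well, with every control between 220 and 233 CPM and a knockdown mean of 118 CPM (edgeR adjusted p = 0.00709). BMPR1B, a type I BMP receptor, stood at 8.68, 2.63 and 6.99 CPM in the controls and at a mean of 0.0588 CPM in the knockdown libraries (edgeR adjusted p = 0.0129). The neurotrophin receptor NGFR was lower in control at 10, 2.31 and 9.13 CPM against 50.3 CPM (edgeR adjusted p = 0.0169). Of 43 receptor tyrosine kinases tested 6 were lower in control, among them the collagen receptors DDR1 and DDR2, and EPHA2, AXL, MET and FGFR1 had edgeR adjusted p-values of 0.115, 0.640, 0.687 and 0.247.

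Spread among the controls was measured as the ratio of the highest to the lowest CPM, with counts under 3 set to 3, over the 11392 genes with a control mean of at least 5 CPM. The ratio reached 2-fold for 3054 genes (26.8%) and 4-fold for 563 (4.94%), and the values lay within 25% of the lowest for 2051 (18.0%). The median range was 0.66 on the log2 scale. For 1466 of the 3054 genes (48.0%) control library 2 stood 2-fold apart from both others. It stood at least 2-fold above both other controls for 516 genes (4.53%) and below both for 950 (8.34%). Library 1 stood so for 133 (1.17%) and 23 (0.202%) genes and library 3 for 38 (0.334%) and 248 (2.18%). Without library 2 the count with a 2-fold range was 479 of 11351 genes (4.22%), and without library 1 or 3 it was 2459 or 1948. Compared in pairs, libraries 1 and 3 differed 2-fold in 4.51% of genes, libraries 1 and 2 in 17.1% and libraries 2 and 3 in 22%. The ratio was larger among weakly expressed genes, at 2-fold for 48.6% of genes of 5 to 10 CPM and for 17.3% of genes of 100 to 500 CPM. Counting error alone gave a coefficient of variation of 8.58%, 10.3% and 12.8% at 5 CPM in libraries 1, 2 and 3.

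Set beside the knockdown group, the controls lay far apart. The median absolute log2 difference of a library from the others of its group averaged 0.417 in the controls and 0.0855 in the knockdown libraries (exact permutation test, two-sided, p = 0.1, the smallest that 3 against 3 libraries allow). Each difference between 2 libraries enters the values of both, so values within a group are not independent, and the p-value takes no account of that. Between control libraries 1 and 3 the median absolute log2 difference was 0.244. The biological coefficient of variation estimated by edgeR was 52.3% in the controls, 41.5% without library 2, and 10.7% in the knockdown group. For 5742 of the 11392 genes (50.4%) the mean of the knockdown libraries fell within the range of the 3 controls, for 26.9% it lay below all 3 and for 22.7% above. The group test called 172 of 3053 genes with a 2-fold range among the controls (5.63%) and 1077 of 8338 genes with a smaller range (12.9%). The difference between these shares was not tested. The group test takes its spread partly from the same controls, so a wide range by itself lowers the chance of a call. The shares therefore say nothing further about these genes.

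**Figure D3:**
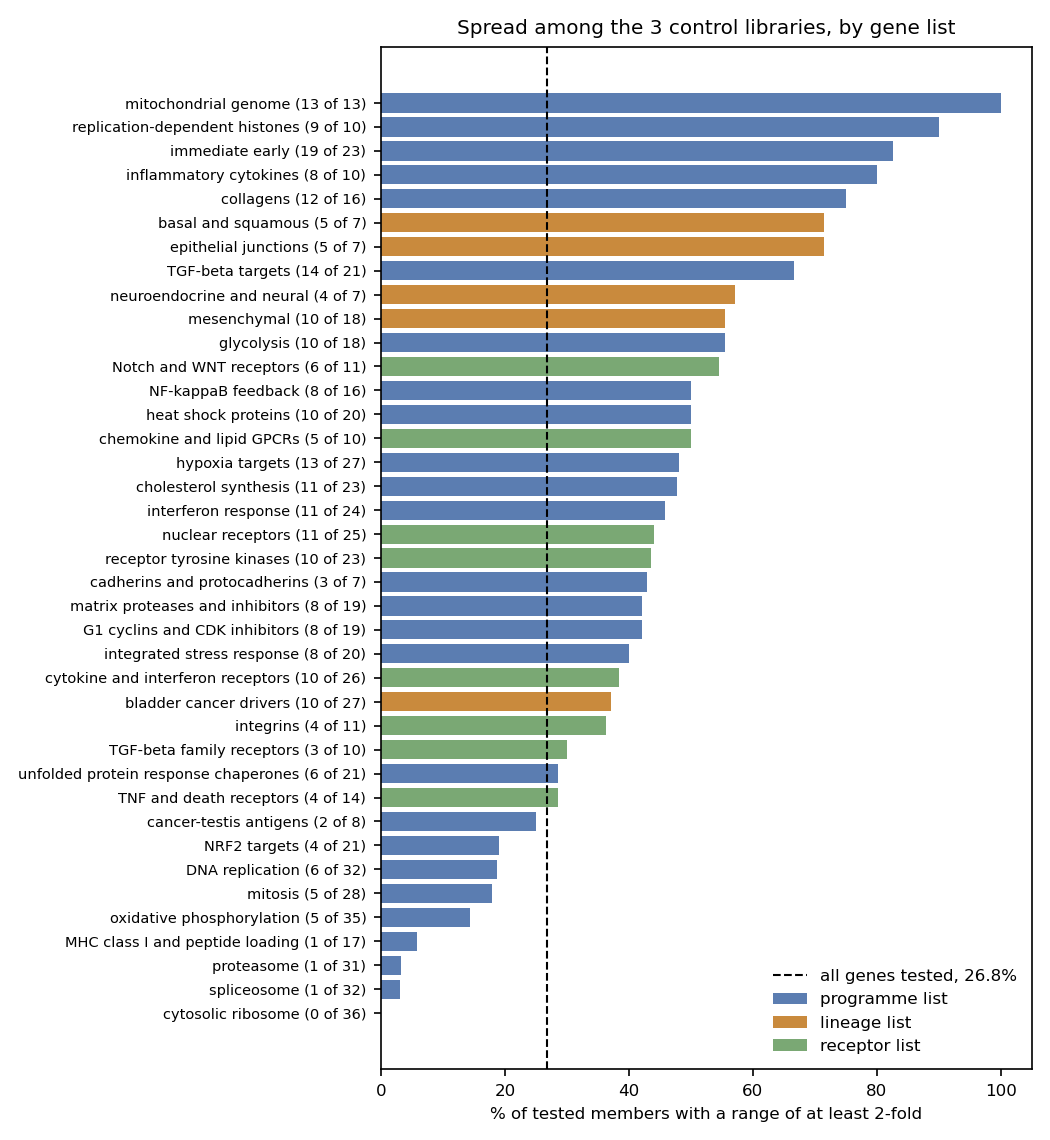
Share of tested members, for programme, lineage and receptor lists with at least 7 tested, whose highest control CPM was at least 2-fold the lowest. Counts of members are in brackets, and the share among all genes tested is a dashed line at 26.8%. Host cell lists are not drawn: fibroblast had 6 of 7 (85.7%) and smooth muscle 6 of 8 (75%). Of the lists drawn, mitochondrial, histone and immediate early genes lie at the top and ribosomal, spliceosome and proteasome genes at the bottom.

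Hypoxia and glycolysis genes were highest in control library 2. Over all genes tested 44.6% had their highest control value in library 2. Of 18 glycolysis genes tested, 16 had it there and 10 (55.6%) had a 2-fold range, against 26.8% of all genes. Of 27 hypoxia targets 19 were highest in library 2 and 13 (48.1%) had a 2-fold range. ANGPTL4, a secreted lipase inhibitor induced by hypoxia, stood at 200, 927 and 85.6 CPM. CA9, the hypoxia-induced carbonic anhydrase, stood at 10.4, 32.3 and 6.17 CPM. NDRG1, a stress-response gene, stood at 425, 1047 and 171 CPM, so library 2 was highest and library 3 lowest for all 3 genes. The glycolytic enzyme PGK1 had 468, 1103 and 297 CPM, lactate dehydrogenase LDHA had 1092, 2612 and 750 CPM and the lactate exporter SLC16A3 had 55.5, 228 and 29.2 CPM. Not every target followed, since the collagen-modifying enzyme PLOD2 had 181, 167 and 163 CPM and VEGFA, the vessel growth factor, had 83.0, 87.5 and 76.8 CPM. Without library 2, 1 of 18 glycolysis genes (ALDOC) and 4 of 27 hypoxia targets (ANGPTL4, NDRG1, STC2 and TMEM45A) had a 2-fold range.

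The core of the hypoxia response element, ACGTG on either strand, was searched in the 250 bases before the start of each gene in RefSeq promoters (GRCh38.p14). It lay in 20 of 38 promoters of the hypoxia list (52.6%), in 15 of 42 of the glycolysis list (35.7%) and in 6501 of all 35116 (18.5%). The core is also part of the E-box CACGTG, and a match is a description of the letters, not a bound site. PLOD2, which varied little among the controls, holds the core too, whereas the uneven NDRG1 is not among the genes with a match. The promoters printed are those of a secreted, a membrane and a glycolytic target that had their highest control value in library 2, each 5′ to 3′ on the strand of its gene, with the core in capitals. The ANGPTL4 window is chr19:8363905-8364154, that of CA9 is chr9:35673678-35673927 and that of PGK1 is chrX:78103998-78104247, all on the plus strand. The core lies 234 bases before the start in ANGPTL4, 18 bases before it in CA9, and 202 and 183 bases before it in PGK1.
ANGPTL4: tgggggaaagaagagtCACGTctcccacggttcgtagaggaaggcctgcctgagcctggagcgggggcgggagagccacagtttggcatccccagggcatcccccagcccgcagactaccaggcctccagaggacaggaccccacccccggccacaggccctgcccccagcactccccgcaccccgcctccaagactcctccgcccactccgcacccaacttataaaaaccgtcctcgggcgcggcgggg
CA9: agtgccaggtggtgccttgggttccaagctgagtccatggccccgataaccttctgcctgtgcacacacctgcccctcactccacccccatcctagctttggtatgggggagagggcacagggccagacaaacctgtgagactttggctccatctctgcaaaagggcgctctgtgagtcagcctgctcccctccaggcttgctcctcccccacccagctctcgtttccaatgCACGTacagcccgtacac
PGK1: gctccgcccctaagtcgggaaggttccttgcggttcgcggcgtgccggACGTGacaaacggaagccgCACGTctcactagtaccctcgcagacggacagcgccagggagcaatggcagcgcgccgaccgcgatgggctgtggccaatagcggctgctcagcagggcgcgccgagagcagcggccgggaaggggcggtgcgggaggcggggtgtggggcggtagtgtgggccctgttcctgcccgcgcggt

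Some of these genes also differed from the knockdown group. ANGPTL4 was higher in control (log2 difference 4.44, SE 0.85, edgeR adjusted p = 0.0245), with every control above the knockdown mean of 18.6 CPM. NDRG1 was higher too (log2 difference 2.69, SE 0.587, edgeR adjusted p = 0.0346), while SLC16A3 at a log2 difference of 2.5 and PGK1 at 1.49 missed the threshold (edgeR adjusted p = 0.0664 and 0.0784). In all, 9 of 30 hypoxia targets and 4 of 18 glycolysis genes were higher in control, against 3.72% of all genes in the edgeR test. The 4 were ENO1, GAPDH, HK2 and LDHA. The knockdown mean lay below all 3 controls for 18 of 27 hypoxia targets and 14 of 18 glycolysis genes, against 26.9% of all genes.

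Cell division genes shared the order of the libraries with smaller steps. Of 28 mitosis genes 24 were highest in library 2 and 19 lowest in library 3, against 44.6% and 32.7% of all genes. Only 5 (17.9%) had a 2-fold range, against 26.8% of all genes: AURKB, CENPA, KIF20A, NDC80 and NUSAP1. NDC80, a kinetochore protein, stood at 28.6, 56.2 and 17.4 CPM and CDC20, the activator of the anaphase-promoting complex, at 196, 205 and 186 CPM. Of 32 DNA replication genes 27 were highest in library 2 and 6 (18.8%) had a 2-fold range. FEN1, the flap endonuclease, had 59.1, 168 and 49.0 CPM, while the helicase subunit MCM6 had 94.1, 96.3 and 94.9 CPM. Here the control spread was narrower than the distance to the other group. The knockdown mean was below all 3 controls for 28 of 28 mitosis and 31 of 32 replication genes, against 26.9% of all genes. By edgeR 25 of 28 and 23 of 32 were higher in control, against 3.72% of all genes in that test. Nuclear genes of oxidative phosphorylation were also highest in library 2, 30 of 35, with 5 (14.3%) at a 2-fold range: ATP5MC1, CYC1, NDUFA8, NDUFB10 and NDUFB3.

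Secreted acute-phase and metal-binding proteins were likewise high in library 2. Of 18 acute-phase genes only 4 were expressed enough to be tested, and all 4 (C3, SAA1, SERPINA1 and SERPINA3) had a 2-fold range. SAA1, serum amyloid A, stood at 12.7, 42.8 and 5.27 CPM and SERPINA3, antichymotrypsin, at 19.7, 24.0 and 2.80 CPM, with library 3 lowest. The metallothionein MT1X stood at 252, 506 and 137 CPM. Of 24 interferon-response genes 16 were highest in library 2 and 19 lowest in library 3, against 44.6% and 32.7% of all genes. A 2-fold range was reached by 11 (45.8%), against 26.8% of all genes. IFI6, a mitochondrial interferon-induced protein, had 119, 326 and 76.7 CPM and IFIT1, which binds foreign RNA, had 45.2, 63.8 and 16.5 CPM. Without library 2, 4 of 24 interferon genes (IFIT1, OAS2, RSAD2 and STAT2) had a 2-fold range.

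Immediate early genes showed the opposite order. Over all genes tested 39.7% were lowest in library 2, 26.8% had a 2-fold range and 8.34% stood at least 2-fold below both other controls in library 2. Of 23 tested, 21 were lowest in library 2 and 19 (82.6%) had a 2-fold range, and 14 stood at least 2-fold below both other controls there. EGR1, a zinc-finger factor, stood at 582, 32.6 and 798 CPM and FOS, a part of AP-1, at 224, 25.8 and 304 CPM. FOSB stood at 95.1, 3.42 and 107 CPM, so libraries 1 and 3 were close and library 2 stood alone in all of these. DUSP1, a phosphatase that ends MAP kinase signals, was the least variable of the list at 453, 360 and 424 CPM. Without library 2, 1 of 24 genes (NR4A3) had a 2-fold range. The knockdown mean lay above all 3 controls for 18 of 23 genes, against 22.7% of all genes. Yet the edgeR test called 7 of 26 lower in control, against 4.59% of all genes in that test. EGR1 was not among the 7 (746 CPM in the knockdown libraries, edgeR adjusted p = 0.685). The cAMP response element was searched in the promoter windows described above. It lay in 2 of 26 promoters of the immediate early list (7.69%) and in 578 of all 35116 (1.65%).

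Inflammatory genes followed the same order. Of 10 cytokine genes tested 9 were lowest in library 2 and 8 (80.0%) had a 2-fold range, against 39.7% and 26.8% of all genes. CXCL8, the neutrophil attractant interleukin 8, stood at 26.6, 1.79 and 47.1 CPM, CXCL3 at 19.3, 1.79 and 12.3 CPM and the interleukin IL11 at 19.3, 2.36 and 32.3 CPM. CCL2, a monocyte attractant, was the steadiest at 31.0, 24.8 and 45.5 CPM. Of 16 feedback genes of NF-kappaB 12 were lowest in library 2, against 39.7% of all genes: TNFAIP3, the A20 deubiquitinase, stood at 80.3, 19.7 and 86.7 CPM and BIRC3 at 327, 108 and 425 CPM, whereas the subunit RELA stood at 80.5, 79.4 and 79.0 CPM. PTGS2, inducible cyclooxygenase, was high in library 1 alone at 28.0, 0.105 and 2.63 CPM.

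Chaperones of the cytosol were low in library 2. Of 20 heat shock genes 15 were lowest there and 10 (50%) had a 2-fold range, against 39.7% and 26.8% of all genes. HSPA1A stood at 2992, 231 and 4198 CPM and HSPA1B at 4778, 352 and 5973 CPM, though the 2 genes are nearly identical and their reads are split by estimate. CRYAB, a small heat shock protein, was high in library 1 at 49.7, 0.473 and 6.25 CPM. HSP90AA1 stood at 1675, 1674 and 1773 CPM, the narrowest range of the list. Without library 2, 1 of 20 genes (CRYAB) had a 2-fold range. The heat shock element, in the form searched, lay in 5 of 30 promoters of the list (16.7%) and in 155 of all 35116 (0.441%). HSP90AA1, with the narrowest range, was among the genes with a match.

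In the endoplasmic reticulum a few genes with large differences stood in a list that was otherwise near the background. Of 21 unfolded protein response chaperones 6 (28.6%) had a 2-fold range, against 26.8% of all genes, and without library 2 there were 0 of 21. HSPA5, the chaperone BiP, stood at 5077, 759 and 4593 CPM. HERPUD1, a degradation factor of the reticulum membrane, stood at 260, 36.8 and 303 CPM and the co-chaperone DNAJB9 at 77.8, 14.0 and 78.1 CPM, so libraries 1 and 3 were alike and library 2 stood 5-fold or more below. HYOU1, a large chaperone of the same compartment, stood at 309, 322 and 323 CPM. Neither HSPA5 nor HERPUD1 passed the group test (edgeR adjusted p = 0.728 and 0.268), with knockdown means of 2648 and 84.9 CPM.

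Some promoters of this list hold a known stress element. The endoplasmic reticulum stress element (CCAAT and CCACG parted by 9 bases), searched on both strands of the same windows, lay in 8 of 27 promoters of the list (29.6%) and 26 of all 35116 (0.0740%). The related element, ATTGG and CCACG parted by 1 base, lay in 3 of 27 (11.1%) and 18 of all (0.0513%). These 3 include HYOU1, whose control values lay close together. The windows of HSPA5 (chr9:125241344-125241593, minus strand) and HERPUD1 (chr16:56931892-56932141, plus strand) are shown because these genes had the widest ranges, with the first element in capitals in HSPA5 and the second in HERPUD1. The elements begin 66 and 117 bases before the start.
HSPA5: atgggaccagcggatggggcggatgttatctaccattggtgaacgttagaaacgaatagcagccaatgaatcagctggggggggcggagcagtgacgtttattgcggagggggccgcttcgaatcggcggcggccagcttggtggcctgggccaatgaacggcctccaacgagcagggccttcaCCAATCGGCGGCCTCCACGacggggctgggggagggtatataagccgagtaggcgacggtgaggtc
HERPUD1: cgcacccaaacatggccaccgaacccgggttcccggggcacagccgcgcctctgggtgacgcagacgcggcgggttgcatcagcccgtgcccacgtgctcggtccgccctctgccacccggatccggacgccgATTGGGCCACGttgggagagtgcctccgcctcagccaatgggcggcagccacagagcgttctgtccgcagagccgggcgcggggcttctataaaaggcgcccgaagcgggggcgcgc

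Cholesterol synthesis and histone genes were low in library 2 as well. Of 23 cholesterol genes 15 were lowest there, against 39.7% of all genes, and 11 (47.8%) stood at least 2-fold below both other controls, against 8.34%. HMGCS1, which makes the precursor of mevalonate, stood at 653, 71.2 and 772 CPM, and MSMO1, a sterol oxidase, at 429, 63.8 and 525 CPM. LSS, lanosterol synthase, stood at 67.4, 74.4 and 75.9 CPM. The knockdown means of HMGCS1 and MSMO1 were 111 and 66.9 CPM, near the values of control library 2. For the list, 10 of 23 genes were higher in control by edgeR and 1, TM7SF2, was lower, against 3.72% and 4.59% of all genes in that test. The sterol response element, in the form searched, lay in 0 of 22 promoters of the cholesterol list and in 12 of all 35116 (0.0342%). Of 10 replication-dependent histone genes 10 were lowest in library 2 and 9 (90%) had a 2-fold range, against 39.7% and 26.8% of all genes. H2BC11 stood at 794, 43.6 and 1226 CPM.

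Lineage genes at low levels differed between libraries too. Of 5 luminal genes tested 5 were highest in library 2, against 44.6% of all genes. They include KRT7 at 9.19, 22.4 and 5.18 CPM and PPARG at 5.11, 11.2 and 3.04 CPM. Of 7 basal genes 5 were lowest in library 2, against 39.7% of all genes. They include KRT5 at 6.91, 0.526 and 7.90 CPM, the stem-cell keratin KRT15 at 21.8, 9.14 and 33.5 CPM and the laminin chain LAMB3 at 30.4, 9.20 and 41.5 CPM. The basal gene S100A2 went the other way at 3.75, 8.46 and 2.96 CPM. Without library 2 neither list had a member with a 2-fold range. Both lists were small, and of the 24 luminal and 25 basal genes listed most lay under the 5 CPM needed to be counted or outside the count table.

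Adhesion and matrix genes varied with no single order. The 16 collagen genes tested had a median log2 range of 1.68, and 12 (75%) had a 2-fold range, against 26.8% of all genes. Of the 16, 6 were highest in library 1, 7 in library 2 and 3 in library 3, against 23.4%, 44.6% and 32.0% of all genes. COL1A1 and COL3A1, the fibrillar collagens, stood at 118, 9.14 and 15.5 CPM and at 34.9, 0.841 and 6.91 CPM, so library 1 was highest. THBS1, thrombospondin 1, was also highest there at 31.9, 2.42 and 2.63 CPM. COL6A3 was lowest in library 1, at 22.8, 66.3 and 67.9 CPM. CDH2 stood at 48.7, 2.79 and 81.9 CPM and the mesenchymal cadherin CDH11 at 14.0, 0.893 and 14.0 CPM, with library 2 lowest. The fibroblast list holds 4 of these collagens (COL1A1, COL1A2, COL3A1 and COL6A3), so its sum is not a separate measure of them. Its other members THY1, a surface glycoprotein, and FBLN1, a matrix protein, stood at 41.1, 123 and 21.8 CPM and at 33.9, 40.1 and 19.5 CPM. The smooth muscle genes summed to 534, 242 and 473 CPM. The part of fibroblast and smooth muscle RNA in the spread was not tested. Without library 2, 8 of 16 collagens had a 2-fold range.

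Stress, protease and cell-cycle lists held wide and narrow members side by side. Among all genes tested 26.8% had a 2-fold range. Of 20 integrated stress response genes 8 (40%) had a 2-fold range: the factor ATF3 stood at 30.4, 2.21 and 28.8 CPM and DDIT3, which encodes CHOP, at 122, 28.7 and 143 CPM, whereas ATF5 stood at 36.6, 34.3 and 36.9 CPM. Of 19 matrix proteases and inhibitors 8 (42.1%) did: PLAU, urokinase, stood at 1125, 370 and 1743 CPM and the gelatinase MMP2 at 88.7, 38.3 and 140 CPM, while the urokinase receptor PLAUR stood at 126, 130 and 140 CPM. Of 21 TGF-beta targets 14 (66.7%) did, with the repressor BHLHE40 at 347, 38.9 and 365 CPM and the latent TGF-beta binding protein LTBP2 at 61.6, 65.0 and 61.5 CPM. Of 19 G1 cyclins and inhibitors 8 (42.1%) did, with CCND3 at 26.3, 71.3 and 28.1 CPM and CCND2 at 90.5, 98.4 and 86.1 CPM. Cancer-testis antigens had 2 of 8 (25%), MAGEA3 and PRAME, and PRAME stood at 14.0, 44.6 and 8.89 CPM.

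The genes of the mitochondrial genome differed in one order. In CPM all 13 protein-coding genes had a 2-fold range and were highest in library 1 and lowest in library 3, against 23.4% and 32.7% of all genes tested. Before scaling these genes took 3.41%, 3.36% and 1.25% of the counts of libraries 1, 2 and 3. Their deposited TPM summed to 54232, 57520 and 23892. The place of library 1 above library 2 therefore depended on the scaling, and library 3 was lowest in each. Without library 1 the 2-fold range was reached by 11 of 13, and without library 3 by 3 of 13 (MT-ND4L, MT-ND5 and MT-ND6). MT-ND5, a complex I subunit, stood at 4259, 1632 and 486 CPM and MT-CO2, a cytochrome oxidase subunit, at 4792, 4253 and 1996 CPM. MT-ND6, the one complex I gene on the light strand, stood at 197, 72.9 and 9.05 CPM. The 2 ribosomal RNAs differed more: MT-RNR1 stood at 157060, 1360 and 1342 CPM and MT-RNR2 at 233504, 8994 and 7617 CPM, high in library 1 alone. Nuclear genes of the same respiratory complexes were lowest in library 1 for 28 of 35, against 27.6% of all genes, so nuclear and mitochondrial subunits had different orders in CPM.

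**Figure D4:**
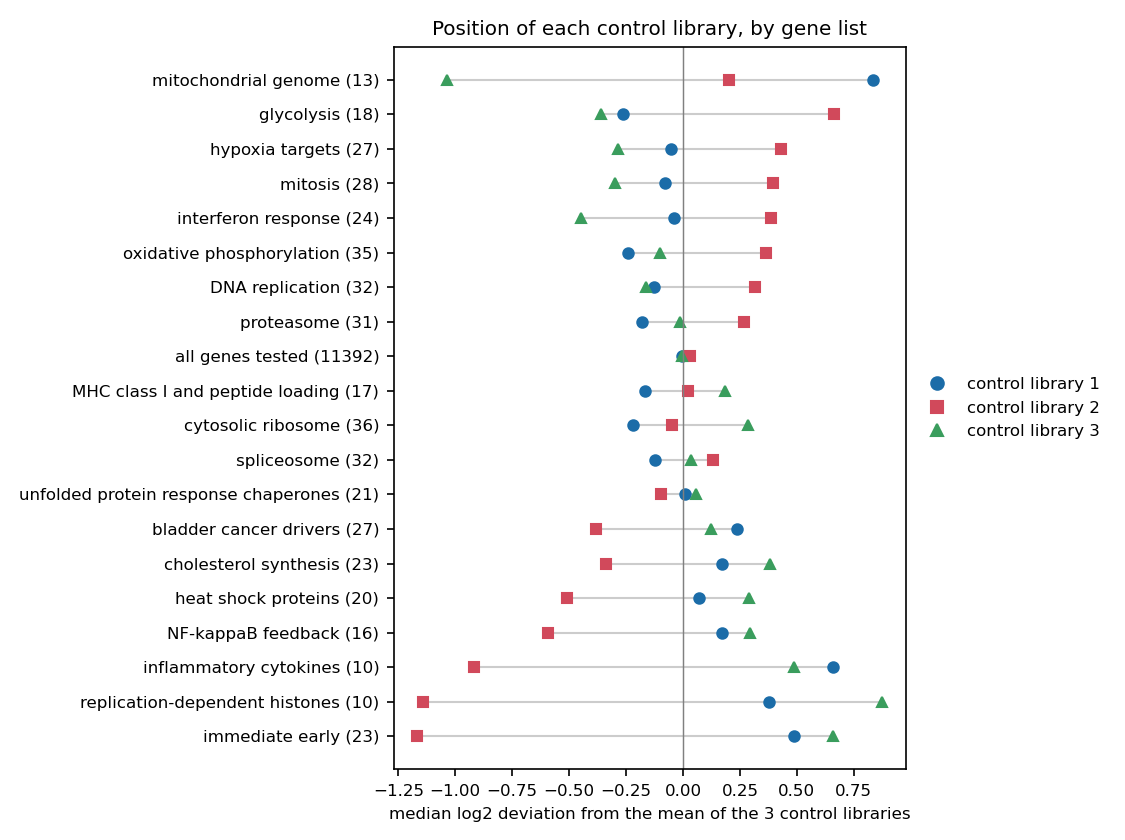
Median over each list of the log2 deviation of a control library from the mean of the 3 (horizontal axis), with the number of tested genes in brackets. Control library 2 lies at 0.66 for glycolysis and at -1.17 for immediate early genes, and control libraries 1 and 3 lie on the other side of 0 in both.

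By the share of genes with a 2-fold range, 26.8% over all genes, the least variable programmes were the machinery of the ribosome, proteasome and spliceosome. The order differed by median log2 range. There the proteasome (0.486), NRF2 targets (0.486) and MHC class I and peptide loading (0.498) were narrower than the spliceosome (0.510) and the cytosolic ribosome. None of 36 cytosolic ribosomal protein genes had a 2-fold range, although 33 were highest in library 3, against 32% of all genes. Their median log2 range was 0.54. Without library 2 it was 0.509, against 0.243 over all genes, so ribosomal genes were then wider than the background. The proteasome and spliceosome lay below the background without library 2, at 0.176 and 0.168. Of 31 proteasome genes 1 (3.23%) reached 2-fold, PSMB3 at 119, 239 and 144 CPM. Of the 31, 26 were highest in library 2, against 44.6% of all genes. Of 32 spliceosome genes 1 (3.13%) did, U2AF1, which is annotated in duplicate and is uncertain. MHC class I and peptide-loading genes had 1 of 17 (5.88%), NLRC5, and TAPBP, the tapasin of the loading complex, stood at 189, 190 and 198 CPM. NRF2 targets of the antioxidant response had 4 of 21 (19.0%), ABCC3, AKR1C3, FTL and HMOX1. Among single genes the steadiest were PACS1, a sorting protein, at 99.2, 99.7 and 99.2 CPM, the splicing factor SRSF4 at 101, 101 and 101 CPM, and CPSF1, a cleavage and polyadenylation factor, at 175, 175 and 177 CPM.

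Several genes at the extremes cannot be read as single genes. ISY1-RAB43 and TMED7-TICAM2 are readthrough transcripts that overlap other genes, and SMIM11B, CBS, U2AF1 and RGPD5 have near-identical copies in the genome, so their values are uncertain. Of the remaining genes named for library 2, CES1, a carboxylesterase, stood at 8.02, 34.9 and 3.04 CPM and ARHGDIB at 6.62, 31.1 and 2.06 CPM, both higher in control than in knockdown (edgeR adjusted p = 0.0271 and 0.0482). MAN1A1, a Golgi mannosidase that trims N-glycans, stood at 120, 3.00 and 113 CPM, 40.2-fold lower in library 2 than in library 1. GRIK2, a glutamate receptor, was highest in library 3 at 15, 3.78 and 38.5 CPM and stood at a mean of 0.527 CPM in the knockdown libraries (edgeR adjusted p = 0.0171).

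**Figure D5:**
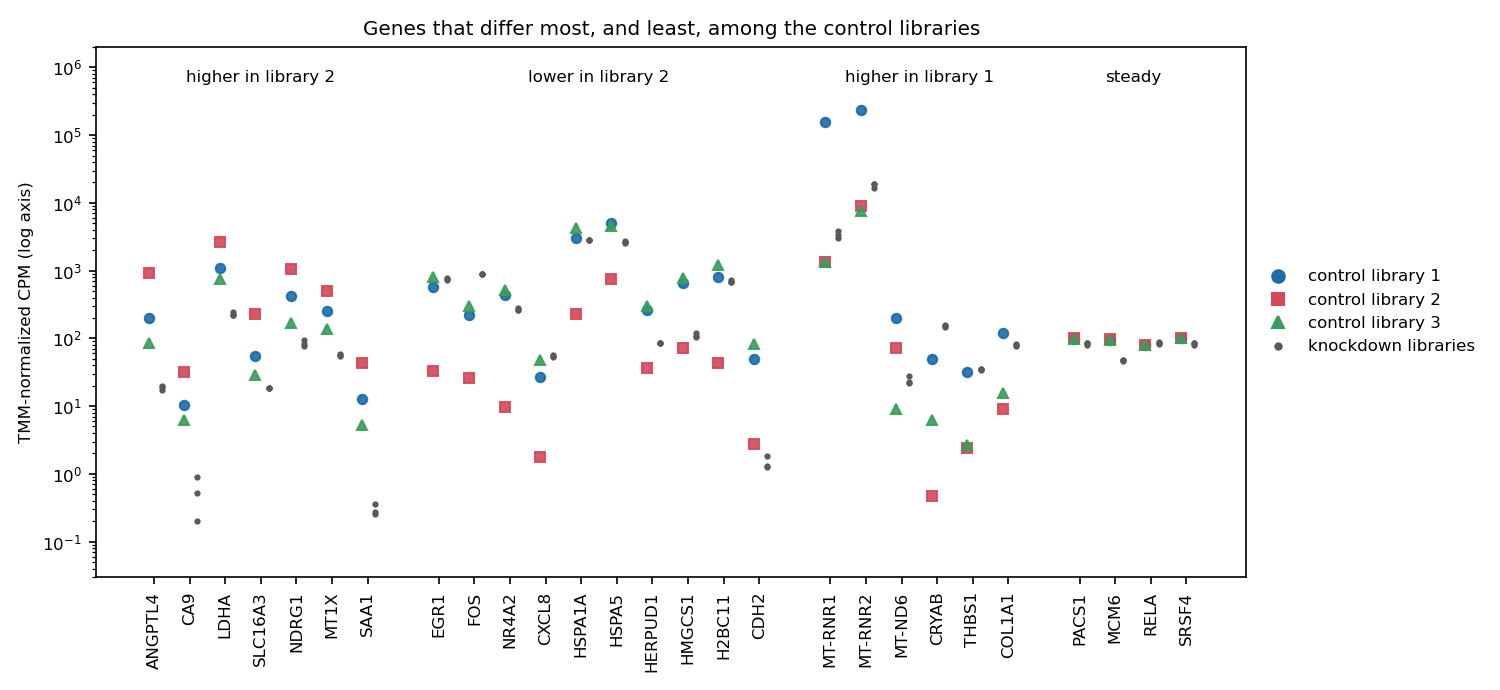
TMM-normalized CPM (logarithmic vertical axis) of genes that differed most and least among the controls, with control libraries 1, 2 and 3 as coloured points and the 3 knockdown libraries as grey points. The knockdown points of a gene lie close together, and EGR1, HSPA5 and HERPUD1 have control libraries 1 and 3 together and library 2 below.

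Library properties moved with library 2. Among protein-coding genes its median log2 deviation was 0.25 in the shortest tertile by exon length and -0.17 in the longest, and 0.27 in the tertile of highest GC content and -0.20 in the lowest. By list, glycolysis genes (median GC 53.2%) stood at 0.66 in library 2 and luminal genes (56.2%) at 0.57, while mitosis genes (43.8%) stood at 0.40 and immediate early genes (55.4%) at -1.17. The part of GC content, length, depth and the summed smooth muscle markers in the differences of library 2 was not tested. The programmes named as high or low in library 2 kept the sign of their median deviation with DESeq2 size factors, upper-quartile factors, deposited TPM and TPM rescaled over protein-coding genes, apart from the unfolded protein response list, whose median lay near 0. On deposited TPM the medians over all genes were -0.44, 0.21 and 0.26 in libraries 1, 2 and 3.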

How the data were processed

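RNA of 3 control and 3 GANAB knockdown libraries was measured by bulk RNA-seq from 200 ng of TRIzol-extracted RNA, per the labels' protocols. The submitters' processing notes name Salmon, fastp and DESeq2 with GRCh38; versions, index and handling of mouse reads (not given in the sources used here) are open. The authors deposited estimated counts per gene as whole numbers (21503 genes) and TPM (60233 genes). Salmon splits reads of near-identical genes by estimate. In the tables, columns of the knockdown samples are abbreviated as a knockout would be, whereas the labels say knockdown.

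Gene lists (51) and named genes were chosen with earlier results of these data known. Named were, by rule, the 20 most abundant nuclear coding genes, up to 5 members of each lineage or host list with the highest TPM and a fixed set of defining markers, up to 4 receptors per class by TPM and 2 by range, the genes furthest above (6) or below (3) the others in each control, the 10 steadiest, and the 3 widest and 1 narrowest member of each programme. CA9, CDH5, CDKN2B, DCN, EGFR, EGR1, FOS, LDHA, LUM, VEGFA, VWF and members listed only to name a count were named after their values were seen.

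CPM used TMM sizes of edgeR 4.0.16 (R 4.3.3); GENCODE 29 gave gene types, lengths and GC. A gene was examined from a control mean of 5 CPM; a count of 3 was the floor. Groups were compared with the edgeR quasi-likelihood test over all 6 libraries with filterByExpr and Benjamini-Hochberg adjustment at 0.05, two-sided. On simulated counts for 19430 genes it recovered 24 of 100 2-fold and 63 of 100 4-fold changes, with 2 false calls. These rates hold for the simulated counts alone. The real groups were unequally spread (edgeR estimates of 52.3% for control and 10.7% for knockdown), so rates in the data may differ. Alternatives changed scaling, filter, depth, scale, test, block and libraries; limma 3.58.1 and DESeq2 1.42.0 served in some. A few members and 1 list are not reported here.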

Additional observations from a re-analysis of the deposited data

How the results depend on the processing

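The number of genes with a 2-fold range among the controls, 3054, was 5825 on deposited TPM, where library 1 reads low, and 3036 with TPM rescaled over protein-coding genes, a setting chosen after seeing the data. It was 5534, 1644 and 10719 with at least 1 CPM, at least 20 CPM and no filter, and 479 to 2459 with 1 control library left out. The distance between libraries, control minus knockdown, was 0.3318; it was 0.5693 on deposited TPM, 0.1607 to 0.4442 without 1 control and 0.3245 to 0.3348 without 1 knockdown library. Against 722 genes higher and 892 lower in control, the DESeq2 Wald test gave 1761 and 1899, limma-voom with sample quality weights 2013 and 1703, and limma-trend on log2(TPM + 1) 77 and 751. With 1 library left out the counts ran from 9 to 2796 higher and from 53 to 2808 lower, the highest without control library 2, and 9 to 33 and 53 to 82 without knockdown library 1, 2 or 3. With the library number as a replicate block 214 were higher and 352 lower. Same-numbered libraries did not deviate together (correlations 0.00223, 0.0171 and 0.0218). The knockdown libraries differed little from each other, so these correlations cannot decide whether the numbers pair the samples. The cause of these shifts was not tested. Of the medians of gene lists, 413 stayed within 0.25 log2 of the main value under the alternatives and 135 moved by more. Depth limits the genes near 5 CPM most, in control library 3. Leaving out ribosomal and small RNA genes, also chosen after seeing the data, gave 3040, 0.3315, 756 and 894 for these 4 results.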
